A study of Homo sapiens with 12 samples.

Results

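Aminoacyl-tRNA synthetases are the enzymes that join each amino acid to its tRNA. The human synthetase genes were taken by symbol, as the 1-letter amino acid code followed by ARS, with FARSA and FARSB (the 2 subunits of the cytosolic phenylalanine enzyme), EPRS1 (the fused glutamate and proline enzyme) and TARS3, formerly TARSL2, a second cytosolic threonine enzyme. The genes described here, called the family below, were 36 of the 63677 in the table, 20 of the cytosol and 16 of the mitochondrion. GARS1 and KARS1 were set with the cytosolic genes, although each encodes both the cytosolic and the mitochondrial enzyme. All 36 had enough reads to be tested.

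The cells were HCT116, an established human colorectal cancer line, carrying 1 of 4 constructs, with 3 libraries each. The control group expressed mCherry, a fluorescent protein, and the CR3 group a peptide that the series title describes as perturbing condensates, which are membraneless assemblies of protein and RNA. The scramble and reverse groups carried 2 further constructs whose sequence no source used here states. All 12 libraries came from cells given doxycycline, the drug that switches the constructs on, at 1 ug/ul (in the labels' spelling) and 48 before extraction, for which they state no unit. The effect of the drug alone can therefore not be read. The labels speak of cell clones without saying how many clones made up a group or whether libraries came from separate cultures, so p-values measure only the spread between these libraries.

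In the cytosol several synthetases, EPRS1, IARS1, LARS1, MARS1, QARS1, RARS1 and KARS1 among them, sit with 3 scaffold proteins in the multisynthetase complex, and others work outside it. The mitochondrial enzymes come from separate nuclear genes, are imported, and charge the tRNAs that the mitochondrial genome encodes. Many cytosolic synthetase genes, but few mitochondrial ones, are known targets of ATF4, the transcription factor made when amino acids run short and the eIF2 kinases are active. ATF4 binds with CEBP partners at composite sites whose core resembles TGATGCAA.

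The proximal promoters, which the results on ATF4 targets refer back to, differed between the classes in this letter string. In RefSeq promoters of build GRCh38.p14, covering 250 bases before to 50 bases after each listed start, TGATGCAA was searched on both strands. It was present in 6 of the 16 cytosolic synthetase genes with an entry and in 0 of 14 mitochondrial ones, against 0.866% of all 35116 promoter entries. Here and below, a gene counted if any of its entries matched, while the percentages are of single entries, so the measures are not alike. The 30 bases around each match are printed 5′ to 3′ on the strand of the gene. Capitals mark the match, which reads in the reverse orientation in all but NARS1.
AARS1: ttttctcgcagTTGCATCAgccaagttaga
CARS1: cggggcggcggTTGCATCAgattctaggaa
IARS1: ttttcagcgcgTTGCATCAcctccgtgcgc
MARS1: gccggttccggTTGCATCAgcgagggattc
NARS1: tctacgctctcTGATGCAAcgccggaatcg
TARS1: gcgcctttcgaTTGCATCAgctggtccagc
The stretches lie at chr16:70289675-70289704 (AARS1), chr11:3057407-3057436 (CARS1), chr9:92293692-92293721 (IARS1) and chr18:57621804-57621833 (NARS1) on the minus strand, and at chr12:57488053-57488082 (MARS1) and chr5:33440956-33440985 (TARS1) on the plus strand. The match begins at position -187 from the listed start in AARS1 and between -13 and 15 in the other 5. The looser string TGATGNAA, which includes TGATGCAA, added GARS1 and the mitochondrial YARS2, and was present in 3.62% of all entries. The E-box string CACGTG was present in 1 cytosolic promoter, of IARS1, and in 3 mitochondrial ones, of CARS2, EARS2 and MARS2, against 7.26% of all entries. LARS1, TARS3, VARS1, YARS1, AARS2 and VARS2 were not searched. A match is a string of letters and not a measured site.

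The libraries held 17421575 to 23555581 reads in genes. Levels are normalized reads, the rebuilt read count divided by the size factor of the library, and a gene is called changed at an adjusted p under 0.05 in limma over all 15425 genes tested. Of the 9 epithelial markers, EPCAM, CDH1, KRT8, KRT18, KRT19 and CDX2 were present in all groups, while the differentiation markers VIL1, CEACAM5 and LGALS4 were near 0. In markers too, CR3 libraries differed from the other 9. Their summed epithelial markers were 45690 to 52940 normalized reads against 55170 to 62810 elsewhere. Not all of these markers were lower. CDX2 (a mean of 341 in CR3 against 314 to 360) and CDH1 (2560 against 2430 to 2770) lay within the other group means. Markers typical of embryonic kidney or neuron-like lines reached 10 reads for 8 of 9 genes in CR3 and 3 of 9 elsewhere, with sums of 3438 to 3617 against 1865 to 2285 and STMN2 at 0 in all 3 other groups. Called higher against all 3 groups were IRS4, UCHL1, NEFM, CDH2 and INA. NES (a mean of 879 in CR3 against 877 to 929), ENO2 (999 against 763 to 965) and PAX2 (239 against 215 to 246) were not. Mesenchymal markers summed to 2075 to 2364 in CR3 against 886.4 to 1172. This sum was carried by VIM (a mean of 764 in CR3 against 64.8 to 97.4), ACTA2 (475 against 138 to 155) and COL1A1 (973 against 726 to 807). Of these, COL1A1 was not called higher against all 3 groups. COL1A2, COL3A1, LUM, DCN and PDGFRB had means under 10 normalized reads in every group. Leukocyte markers summed to 1284 to 1413 in CR3 against at most 10.55 elsewhere, with PTPRC and CD3E at 0 in CR3. Nearly all of that sum was LAPTM5, with a mean of 1330 in CR3. The part of these differences in the synthetase values below was not tested. In bulk RNA, fewer cells of a type and less RNA per cell cannot be told apart.

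Cytosolic synthetases were the more abundant class per length of transcript. The median cytosolic gene had 1370 normalized reads per kb of exon over all 12 libraries and the median mitochondrial gene 178. The cytosolic range ran from TARS3 at 129 to VARS1, the valine enzyme, at 2020 normalized reads per kb. The mitochondrial range ran from WARS2, the tryptophan enzyme, at 50 to IARS2, the isoleucine enzyme, at 1270 normalized reads per kb. TARS3 thus lay inside the mitochondrial range, and IARS2 inside the cytosolic one. The 20 cytosolic genes together took 0.389% ± 0.0056 of the CR3 reads, 0.402% ± 0.003 of the mCherry reads, 0.431% ± 0.00338 of the scramble reads and 0.417% ± 0.00526 of the reverse reads (SD, n = 3 each). The share was 0.383% to 0.394% in the 3 CR3 libraries and at least 0.3997% in each of the other 9. The 16 mitochondrial genes together took 0.07096% to 0.07228% of the reads in the CR3 libraries and 0.07229% to 0.0761% in the other 9, so here the sets all but touched. With 3 libraries against 3, an exact two-sided permutation test cannot go below p = 0.1, so these shares are given as values.

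**Figure D1:**
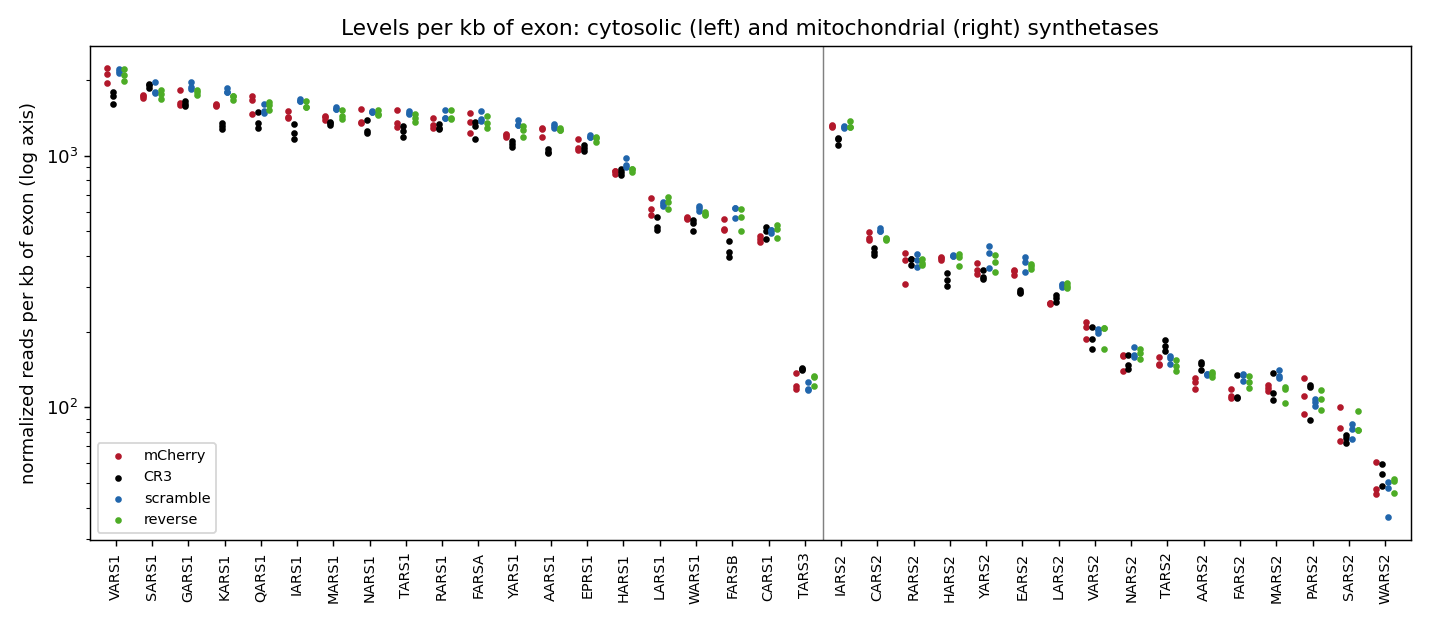
Normalized reads per kb of exon (log axis) in every library for the 20 cytosolic genes (left of the grey line) and the 16 mitochondrial genes (right), each class sorted by its mean, with a point per library coloured by group. Most cytosolic genes lie above the mitochondrial ones, with medians of 1370 and 178, and TARS3 and IARS2 stand out from their classes.

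CR3 cells had less RNA of several synthetases of both compartments than any other group. Called lower against mCherry, scramble and reverse alike were 6 of 20 cytosolic genes (AARS1, FARSB, IARS1, KARS1, LARS1 and VARS1) and 4 of 16 mitochondrial genes (CARS2, EARS2, HARS2 and IARS2). That is 27.8% of the family, beside 11.2% of all genes tested and 23.5% of the 5024 genes with a mean of at least 1000 normalized reads. The second background is the closer one for the cytosolic class, where 19 of 20 genes reach that level, while 4 of 16 mitochondrial genes do. The cytosolic share is near that background. The changes were small, between -29.8% and -10.9%, with medians over the 10 genes of -16.4% against mCherry, -20.9% against scramble and -18.4% against reverse. In 13 members (36.1%) the 3 CR3 libraries lay below the 9 others, where 13.4% of all genes and 26.5% of the abundant ones did so. No member was called higher against all 3 groups by limma on log2 values or by limma voom, where 11% of all genes were, and 1, TARS2, was higher in all 3 at an unadjusted p under 0.05. With library totals in place of the size factors, 6 genes were lower and 4 (SARS1, TARS3, AARS2 and TARS2) higher against all 3, and IARS1, LARS1, CARS2 and IARS2 lost a call. On that scale 927 of all 15425 genes tested were lower and 2762 higher against all 3. AARS1, FARSB, KARS1 and IARS2 have pseudogenes named after them in GENCODE release 29, so some of their reads may have been split or dropped in counting.

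Each comparison of CR3 has its own count, and all 3 use the same CR3 libraries. Against mCherry, 11 members were lower (7 cytosolic, 4 mitochondrial) and 3 higher, where 14.6% of all genes and 27.5% of those with at least 1000 normalized reads were lower and 14.1% of all genes higher. The share of the family called lower was 30.6%, close to that of the abundant genes, and the 14 calls became 9 when only these 2 groups were fitted. Over all genes, that fit took the calls from 2178 to 1702 higher and from 2252 to 1571 lower. Against scramble, 21 were lower (15 cytosolic, 6 mitochondrial) and 1 higher, or 58.3% lower, where 18.7% of all genes and 34.7% of the abundant ones were lower and 19.2% of all genes higher. Against reverse, 19 were lower (14 cytosolic, 5 mitochondrial) and 1 higher, or 52.8% lower, where 16.8% of all genes and 31.4% of the abundant ones were lower and 17% of all genes higher. Without the third CR3 library, 13 members were called against reverse in place of 20. The median log2 fold change of the cytosolic genes was -0.10, -0.21 and -0.16 in these comparisons, and of the mitochondrial genes -0.03, -0.15 and -0.12, beside 0.002, 0.013 and 0.007 over all genes. Medians over the abundant genes alone were not computed, and a larger share of those genes than of all genes was called lower. With library totals in place of size factors, 3 cytosolic genes were higher and 4 lower against mCherry, 2 and 11 against scramble and 2 and 6 against reverse. Of the mitochondrial genes, 3 were higher and 2 lower against mCherry, and 2 and 3 against each of the others. Over all 15425 genes, 3579 were then higher and 1270 lower against mCherry, 4514 and 1798 against scramble and 4085 and 1542 against reverse. On that scale the medians over all genes moved to 0.091, 0.104 and 0.095, the cytosolic ones to -0.01, -0.12 and -0.07 and the mitochondrial ones to 0.06, -0.06 and -0.03, so that the mitochondrial median against mCherry changed sign.

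**Figure D2:**
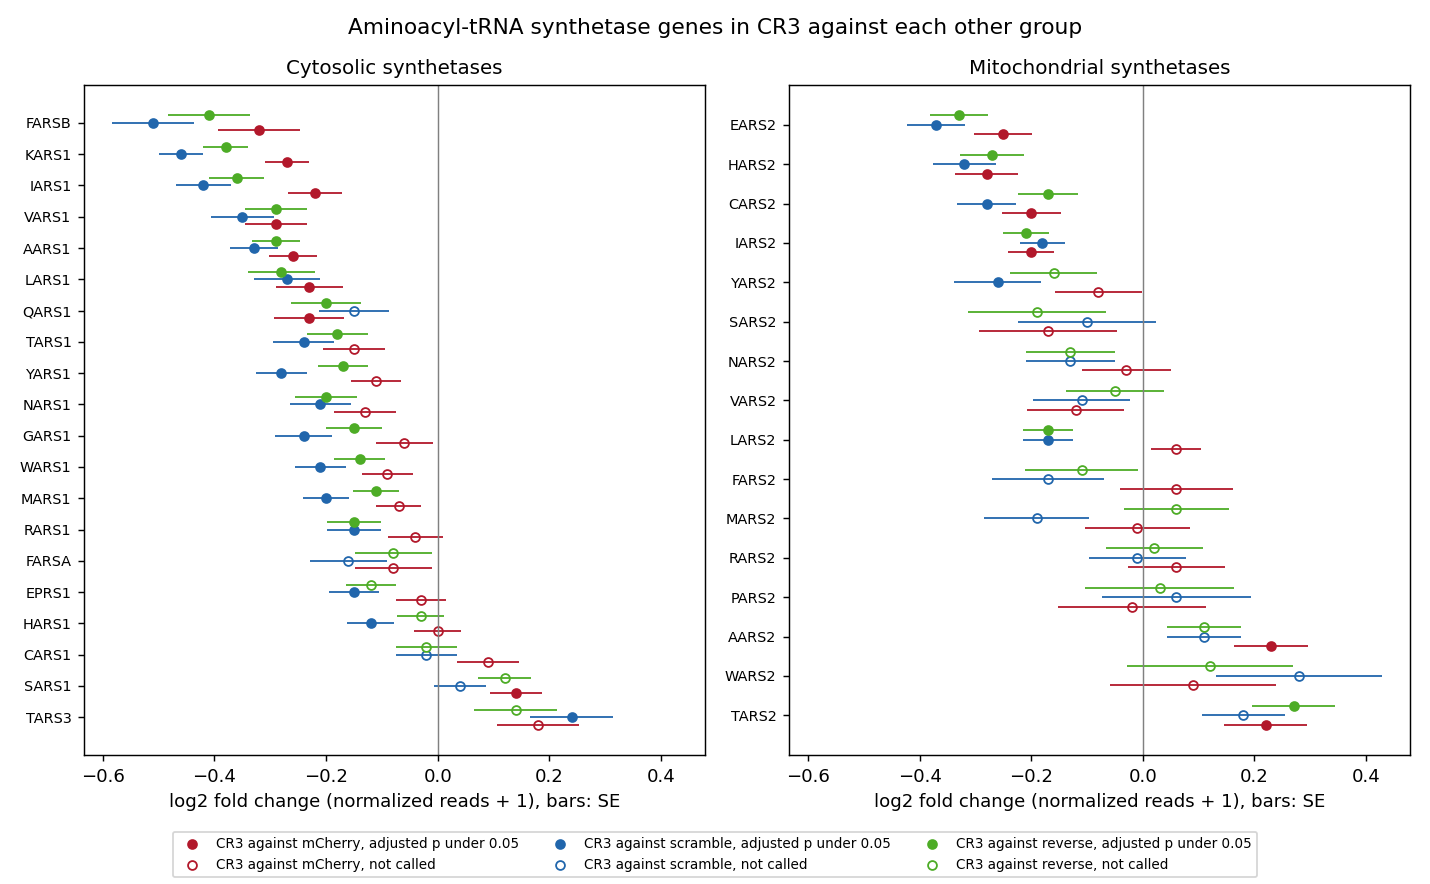
The log2 fold change of normalized reads + 1 of each synthetase gene in CR3 against mCherry (red), scramble (blue) and reverse (green), bars showing the standard error and filled points an adjusted p under 0.05 (limma, n = 3 per group). In the left panel 17, 18 and 18 of the 20 cytosolic genes lie below 0, and in the right panel 10, 12 and 10 of the 16 mitochondrial genes. With library totals as the scale the medians shift upwards, and the mitochondrial median against mCherry turns from -0.03 to 0.06.

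KARS1, the lysine enzyme of both compartments and a member of the multisynthetase complex, changed with the smallest adjusted p of the family. Its normalized reads were 3830, 3894 and 3857 in mCherry, 3206, 3282 and 3098 in CR3, 4347, 4362 and 4513 in scramble, and 4217, 4186 and 4064 in reverse. All 3 CR3 libraries were the lowest, and the highest of them, 3282, was well under the lowest of the other 9, 3830. The log2 fold change was -0.27 ± 0.040 (SE) against mCherry (limma adjusted p = 5.13e-05), -0.46 against scramble (adjusted p = 9.68e-08) and -0.38 against reverse (adjusted p = 1.08e-06). GARS1, the glycine enzyme, which likewise serves both compartments, was not called against mCherry. It had 4214, 4305 and 4853 normalized reads in mCherry, 4183, 4366 and 4269 in CR3, 4979, 4892 and 5225 in scramble, and 4825, 4751 and 4629 in reverse. Its CR3 libraries overlapped with mCherry and lay below all scramble and reverse libraries, with changes of -15.1% (limma adjusted p = 0.00144) and -9.76% (limma adjusted p = 0.0327). The call against reverse was lost without CR3 library 1 or 3 or reverse library 1 or 2.

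FARSB, the beta subunit of the phenylalanine enzyme, had the largest decrease of the family, against scramble. Its normalized reads were 1715, 1718 and 1892 in mCherry, 1399, 1541 and 1330 in CR3, 2097, 1899 and 2086 in scramble, and 2076, 1916 and 1693 in reverse. The CR3 libraries were below all others, and the spread in reverse was wide. FARSB changed by -19.8% from mCherry, by -29.8% from scramble and by -24.9% from reverse (limma adjusted p = 0.0032, 3.13e-05 and 0.000321). FARSA, which encodes the alpha subunit of the same enzyme, was not called in any of the 3 comparisons, with log2 fold changes of -0.08, -0.16 and -0.08. Whether the subunits differed in their response was not tested.

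VARS1 had 9585, 9079 and 8367 normalized reads in mCherry, 7730, 6925 and 7460 in CR3, 9373, 9158 and 9562 in scramble, and 8545, 9540 and 9035 in reverse. Its CR3 libraries were below the other 9, by -18.2%, -21.3% and -18.5% in the 3 comparisons (limma adjusted p = 0.000839, 0.000111 and 0.000582). AARS1, the alanine enzyme and one of those with TGATGCAA in its promoter, had 4474, 4449 and 4110 in mCherry, 3613, 3557 and 3705 in CR3, 4575, 4640 and 4467 in scramble, and 4407, 4493 and 4415 in reverse. The CR3 libraries of AARS1 differed little among themselves and lay well below the rest. Its log2 fold changes were -0.26, -0.33 and -0.29 (SE 0.043 each, limma adjusted p = 0.00017, 9.85e-06 and 4.47e-05).

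Of the 7 enzymes named above for the multisynthetase complex, 4 were called lower against mCherry, 6 against scramble and 6 against reverse, and 3 (IARS1, KARS1 and LARS1) in all 3. All 7 are abundant, and 27.5%, 34.7% and 31.4% of the genes with at least 1000 normalized reads were lower in these comparisons and 23.5% in all 3. Each of the 7 was called lower in at least 1 comparison and none was called higher. The median log2 fold change of these enzymes was -0.22, -0.20 and -0.20, beside -0.09, -0.21 and -0.15 for the 13 other cytosolic genes. With library totals as the scale, 1, 4 and 3 of the 7 were called lower, and KARS1 remained lower in all 3. Of all 15425 genes, 1270, 1798 and 1542 were called lower on that scale, and 927 in all 3. IARS1, the isoleucine enzyme, had 6834, 6752 and 7219 normalized reads in mCherry, 5590, 6383 and 5923 in CR3, 7937, 8045 and 7898 in scramble, and 7900, 7503 and 7491 in reverse. The CR3 libraries of IARS1 were lowest and those of mCherry next, with changes of -14.0% against mCherry, -25.1% against scramble and -21.8% against reverse (limma adjusted p = 0.00257, 3.12e-06 and 2.15e-05). LARS1, the leucine enzyme, which also serves as a leucine sensor for mTORC1, had 2774, 2936 and 3247 in mCherry, 2490, 2721 and 2426 in CR3, 3118, 3068 and 3011 in scramble, and 3263, 3117 and 2915 in reverse. The highest CR3 library of LARS1 came close to the lowest mCherry one, and without the third CR3 library the gene was no longer called against all 3 groups. Of the scaffolds, AIMP2 and EEF1E1 were called lower each time (log2 fold changes of -0.21 and -0.30 against mCherry, limma adjusted p = 0.0197 and 0.0365), and AIMP1 in none (-0.08, limma adjusted p = 0.426). With library totals no scaffold was lower in all 3.

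**Figure D3:**
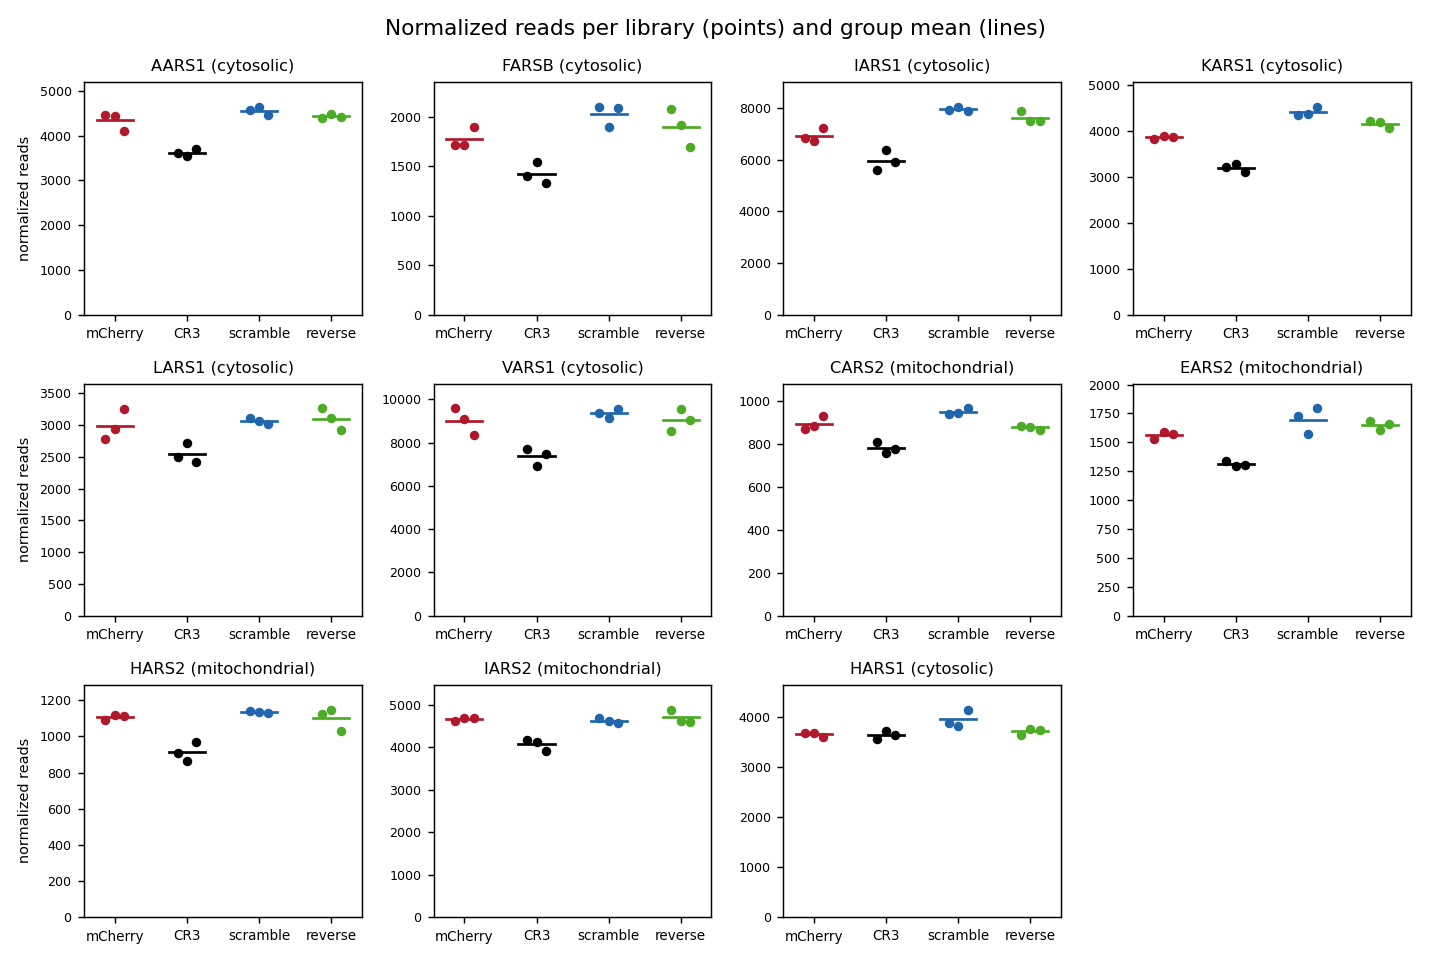
Normalized reads in each library (points) and the group mean (line), n = 3 per group and axes from 0, for the 10 synthetase genes called lower in CR3 against all 3 groups and for HARS1. In each of the 10 the CR3 points lie below the other 9, while in HARS1 they overlap with mCherry and reverse. With library totals as the scale, IARS1, LARS1, CARS2 and IARS2 no longer pass in every comparison.

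The 4 mitochondrial genes were the enzymes for cysteine, glutamate, histidine and isoleucine. EARS2, for glutamate, had 1527, 1591 and 1576 normalized reads in mCherry, 1335, 1293 and 1305 in CR3, 1725, 1568 and 1794 in scramble, and 1685, 1604 and 1663 in reverse. Its CR3 libraries were tightly grouped below all others, by -16.2%, -22.7% and -20.6% (limma adjusted p = 0.00136, 2.88e-05 and 9.95e-05). IARS2, the most abundant of the class, had 4630, 4701 and 4685 in mCherry, 4175, 4137 and 3918 in CR3, 4688, 4619 and 4584 in scramble, and 4896, 4632 and 4613 in reverse. The 9 other libraries of IARS2 hardly differed by group, and the CR3 ones were lower by a log2 fold change of -0.20, -0.18 and -0.21 (SE 0.041 each, limma adjusted p = 0.00152, 0.00188 and 0.000751). CARS2, for cysteine, had 870.1, 885.7 and 932.4 in mCherry, 809.0, 758.8 and 778.0 in CR3, 939.9, 943.3 and 966.9 in scramble, and 885.3, 880.4 and 868.0 in reverse. CARS2 was the least secure of the 10. Its decrease of -10.9% against reverse had a limma adjusted p of 0.022, and leaving out CR3 library 2 or 3, or reverse library 1 or 2, each ended its call against all 3 groups.

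HARS1 and HARS2, the cytosolic and mitochondrial histidine enzymes, lie head to head on chromosome 5 and read away from each other, with RefSeq starts 84 bases apart (chr5:140691371-140691454, GRCh38.p14, between them). HARS2 had 1093, 1121 and 1111 normalized reads in mCherry, 907.1, 863.2 and 969.4 in CR3, 1141, 1136 and 1131 in scramble, and 1124, 1149 and 1031 in reverse. All CR3 values of HARS2 were below all others, by -17.6%, -19.6% and -17.1% (limma adjusted p = 0.00122, 0.000304 and 0.00138). HARS1 had 3674, 3691 and 3595 in mCherry, 3560, 3732 and 3652 in CR3, 3888, 3824 and 4152 in scramble, and 3646, 3766 and 3733 in reverse. HARS1 in CR3 overlapped with mCherry and reverse and was called lower against scramble, by -7.76% (limma adjusted p = 0.04), a call that was lost without CR3 library 1 or 3, reverse library 3 or scramble library 1 or 3. The log2 ratio of HARS1 to HARS2 was 1.72 ± 0.03 in mCherry, 1.80 ± 0.07 in scramble, 1.75 ± 0.09 in reverse and 2.0 ± 0.10 in CR3 (SD, n = 3 each), and the CR3 libraries lay above all others. The 2 genes overlap on opposite strands in GENCODE release 29, HARS2 also overlaps ZMAT2 on its own strand, and the strand setting of the counting is not stated in the sources used here, so part of their reads may have been shared or dropped.

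Setting each cytosolic enzyme beside the mitochondrial one for the same amino acid gave 17 pairs, counting EPRS1 with both EARS2 and PARS2 and both FARSA and FARSB with FARS2. The log2 ratio in the 3 CR3 libraries was below all 9 others in 3 pairs, above them in 2 and overlapped in 12. How often ratios of other gene pairs separate in this way was not counted, so these counts have no background. As single genes, 13.4% of all those tested had the 3 CR3 libraries below the 9 others. The 3 pairs below were those for alanine, threonine and valine. AARS1 to AARS2 moved from a log2 ratio of 3.17 ± 0.02 in mCherry, 3.13 ± 0.03 in scramble and 3.08 ± 0.02 in reverse to 2.68 ± 0.05 in CR3 (SD, n = 3 each). TARS1 to TARS2 was 3.54 ± 0.14 in CR3 against 3.90 ± 0.15, 3.96 ± 0.08 and 3.98 ± 0.11. The pairs above were histidine and glutamate. EPRS1 to EARS2 was 2.04 ± 0.07 in CR3 against 1.81 ± 0.07, 1.82 ± 0.09 and 1.82 ± 0.06. Apart from the 1 added to each value, these ratios do not depend on how the libraries were scaled, and none was given a test, since 3 libraries against 3 cannot go below p = 0.1 in an exact permutation test.

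**Figure D4:**
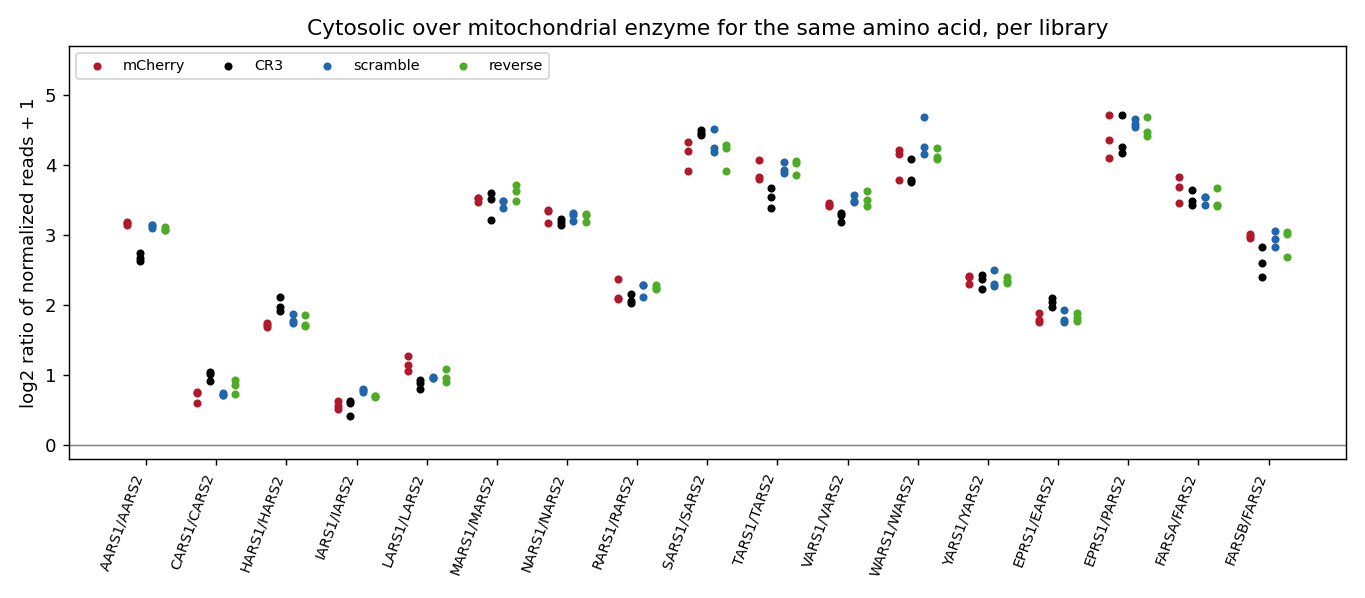
The log2 ratio of the normalized reads + 1 of the cytosolic to the mitochondrial gene for each pair, a point per library coloured by group (n = 3 each) and not divided by gene length, so that groups can be compared within a pair but not the height of different pairs. The CR3 points lie below the other 9 for AARS1/AARS2, TARS1/TARS2 and VARS1/VARS2 and above them for HARS1/HARS2 and EPRS1/EARS2.

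The calls left 10 members that passed in no CR3 comparison, 2 cytosolic (CARS1 and FARSA) and 8 mitochondrial. The 4 members called higher somewhere are named here after their values were seen. TARS2, the mitochondrial threonine enzyme, had 415.7, 440.8 and 411.8 normalized reads in mCherry, 517.6, 468.4 and 488.9 in CR3, 439.3, 447.8 and 413.8 in scramble, and 406.2, 387.5 and 429.0 in reverse. The CR3 libraries of TARS2 were above the other 9, and it was called against mCherry (16.3%, limma adjusted p = 0.036) and reverse (20.6%, limma adjusted p = 0.00913) but not scramble (13.4%, limma adjusted p = 0.0639). AARS2, the mitochondrial alanine enzyme, was higher against mCherry by 17.1% (limma adjusted p = 0.015), with 540.9 to 581.4 in CR3 and 455.5 to 505.5 in mCherry. SARS1, the serine enzyme, was higher against mCherry by 10.3% (limma adjusted p = 0.0328). TARS3 had 430.3, 444.1 and 501.4 in mCherry, 513.8, 519.3 and 524.0 in CR3, 432.5, 430.0 and 460.2 in scramble, and 481.2, 485.7 and 446.1 in reverse. The CR3 libraries of TARS3 were the highest 3, and the call was against scramble only (17.7%, limma adjusted p = 0.0191). The call of TARS2 against reverse passed with any 1 library left out. The other higher calls were each lost without single libraries: SARS1 lost its call without any 1 of 5 libraries (CR3 2 or 3, mCherry 1, 2 or 3), TARS2 against mCherry without CR3 1 or 3 or mCherry 1 or 3, AARS2 without CR3 3 or mCherry 3, and TARS3 without CR3 3 or scramble 1 or 2. With library totals as the scale, all 4 were higher against all 3 groups, where 2762 of all 15425 genes tested were. WARS2, the least abundant member, had 172.3, 128.7 and 134.4 in mCherry, 154.1, 168.4 and 138.2 in CR3, 103.6, 143.0 and 135.9 in scramble, and 146.9, 129.9 and 144.8 in reverse. All groups of WARS2 overlapped with CR3. Its standard error of 0.149 on the log2 scale was several times the 0.041 of IARS2.

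Of the 13 cytosolic synthetases listed as ATF4 targets, 4 were called lower in CR3 against mCherry, 11 against scramble and 10 against reverse, and 4 (AARS1, IARS1, LARS1 and VARS1) against all 3. In shares these are 30.8%, 84.6%, 76.9% and 30.8%, beside 27.5%, 34.7%, 31.4% and 23.5% of the genes with at least 1000 normalized reads. All 13 reach that level, so that the share against mCherry and the share against all 3 groups are near their backgrounds. SARS1 was the 1 called higher, against mCherry. The 7 cytosolic genes outside that list gave 3, 4 and 4, and 2 against all 3 (FARSB and KARS1). The median log2 fold changes were -0.11, -0.24 and -0.17 in the list and -0.08, -0.15 and -0.15 outside it. With library totals as the scale, the list gave 2, 9 and 4 genes lower, with medians of -0.03, -0.14 and -0.08, and 2 of it (AARS1 and VARS1) were lower and 1 (SARS1) higher against all 3 groups. Over all 15425 genes, that scale gave 1270, 1798 and 1542 lower, and 927 lower and 2762 higher against all 3 groups. Of the 6 genes with TGATGCAA printed above, AARS1 and IARS1 were lower against all 3 groups, MARS1, NARS1 and TARS1 against scramble and reverse only, and CARS1 in none. The calls against reverse were not firm. That of MARS1 (limma adjusted p = 0.0485) was lost with the replicate block, limma voom, library totals, recomputed size factors, a looser filter or only the 2 groups fitted, and without any 1 of 10 libraries (all but mCherry 3 and reverse 1), that of NARS1 without CR3 library 3, and that of TARS1 without CR3 library 1 or 3 or reverse library 1 or 2. MARS1 overlaps DDIT3, itself an ATF4 target, on the opposite strand.

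The ATF4 targets outside the family did not all move one way. Of 26 tested, 9 were lower and 2 higher in CR3 against all 3 groups, or 6 and 2 with library totals as the scale. By the size factors, 11.2% of all genes tested were lower and 11% higher. By library totals, 927 of all 15425 were lower and 2762 higher. Of the genes with at least 1000 normalized reads, 23.5% were lower. All of the 9 but STC2 had more than 1000 normalized reads in mCherry. Several of the other tested genes, ATF3, DDIT3, CHAC1, SLC1A4, CEBPB, ADM2 and CTH among them, had fewer in every group. The 9 of 26 are therefore not matched in level to that background. SLC38A2, a neutral amino acid transporter, was 10520 ± 424.5 normalized reads in CR3 and 15340 ± 813.0 in mCherry (limma adjusted p = 1.84e-07), and MTHFD2, a mitochondrial folate enzyme, 3599 ± 205.2 and 4579 ± 219.5 (limma adjusted p = 4.08e-05). The 2 that rose were VLDLR, a lipoprotein receptor, at 29.96 ± 9.102 against 0.2804 ± 0.4856, and SESN2, a stress-induced regulator of mTORC1, at 878.3 ± 62.18 against 505.6 ± 18.94 (limma adjusted p = 1.5e-07 and 2.45e-07, SD, n = 3 each). ATF4 itself was lower in all 3 comparisons, by -0.13, -0.20 and -0.17 on the log2 scale (limma adjusted p = 0.0378, 0.00204 and 0.00814). In its list of 8 eIF2 kinases, phosphatase subunits and partners, EIF2AK4, the kinase that senses uncharged tRNA, was also lower in all 3 (-0.16, -0.16 and -0.15), and none was higher. These 2 of 8 are near the background of genes with at least 1000 normalized reads, of which 23.5% were lower against all 3 groups (11.2% of all genes). With library totals no gene of that list was called in any CR3 comparison. EIF2AK1, the haem-regulated kinase, was lower against mCherry only (-0.15, limma adjusted p = 0.00867), and PPP1R15B, a phosphatase subunit, was not called there (-0.11, limma adjusted p = 0.0796). PPP1R15B was lower against scramble (-0.19, limma adjusted p = 0.0033) and reverse (-0.20, limma adjusted p = 0.0028).

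Other genes on the path of tRNA from synthesis to ribosome were counted from fixed lists, to be read beside the 11.2% of all genes tested and 23.5% of the abundant ones that were lower against all 3 groups and the 11% of all genes that were higher. With library totals, 927 of all 15425 genes were lower against all 3 and 2762 higher. Of 7 tested cytosolic elongation factors, 5 were lower in CR3 against all 3 groups and none higher (4 and none with library totals). These include EEF1A1, which carries charged tRNA to the ribosome and whose many near-identical pseudogenes make its count uncertain, at 87740 ± 2943 normalized reads in CR3 and 110800 ± 2307 in mCherry, EEF1B2, its exchange factor (-0.40 on the log2 scale against mCherry), EIF5A (-0.36) and EEF1D (-0.27), with limma adjusted p between 9.12e-07 and 0.00197. Of 10 mitochondrial elongation, initiation and charging factors, 3 were lower and none higher (TUFM alone with library totals): TUFM, the mitochondrial counterpart of EEF1A1 (-0.30 against mCherry), GATB, which helps make mitochondrial glutaminyl-tRNA (-0.25), and TSFM, the exchange factor of TUFM (-0.20). MTIF2, a mitochondrial initiation factor, was not called against mCherry (-0.09, limma adjusted p = 0.295). Of 20 genes of tRNA maturation and export, 1 was lower against all 3, POP1 of RNase P (-0.33 against mCherry, limma adjusted p = 0.00118), while ELAC2, RTCB and TSEN34 were not called against mCherry. In this list 5 were lower and 0 higher against scramble, and 7 lower and 1 higher against reverse. ELAC2 was among those lower in both (-0.27 and -0.21, limma adjusted p = 0.000247 and 0.00245). Of 21 genes of RNA polymerase III and its factors, GTF3A, GTF3C4 and POLR3G were lower against all 3 (-0.29, -0.21 and -0.30 against mCherry), and POLR3A, the largest subunit, was higher against mCherry (0.27, limma adjusted p = 0.000582) and reverse but not scramble. With library totals this list turned, with POLR3A and GTF3C1 higher and GTF3A alone lower against all 3. Of 7 genes for selenocysteine charging and editing, 1 was higher against all 3, SEPHS2 (0.13 against mCherry, limma adjusted p = 0.0392). DTD1, SEPHS1 and PSTK of that list were not called against mCherry.

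Among the 3 groups without CR3, 4 calls were made in the family, all against mCherry. In scramble against mCherry, LARS2, the mitochondrial leucine enzyme, KARS1 and IARS1 were higher and none was lower, or 8.33% of the family where 0.797% of all genes were called higher and 0.804% lower. LARS2 had 1329, 1325 and 1339 normalized reads in mCherry, 1342, 1432 and 1398 in CR3, 1590, 1573 and 1543 in scramble, and 1530, 1597 and 1557 in reverse. The mCherry and CR3 libraries of LARS2 formed a low set and the scramble and reverse libraries a high one, without overlap. The change was 17.9% in scramble (limma adjusted p = 0.0109) and 17.3% in reverse (limma adjusted p = 0.0174), the latter being the 1 call in reverse against mCherry, where 0.253% of all genes were called higher and 0.408% lower. KARS1 was 14.2% and IARS1 14.8% higher in scramble (limma adjusted p = 0.0202 and 0.0494). These calls rest on few libraries: without mCherry library 2, scramble library 1 or scramble library 2 no member was called in scramble against mCherry, and without mCherry library 1 or 2 or reverse library 2 or 3 none was called in reverse against mCherry. Without mCherry library 1 or scramble library 3, 1 member was called in scramble against mCherry, and without mCherry library 3 there were 5. Fitted values were above 0 in scramble against mCherry for 29 of 36 members, all 13 on the ATF4 list among them, with medians of 0.11 for cytosolic and 0.08 for mitochondrial genes (0.04 for the latter without mCherry library 1). In 18 members (50%) every scramble library exceeded every mCherry library, where 9.97% of all genes and 15.5% of the abundant ones did so. In reverse against scramble limma called no member (where 0.279% of all genes were called higher and 0.188% lower), with 0 higher and 5 lower at an unadjusted p under 0.05 and 0 calls by limma voom.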

How the data were processed

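PolyA RNA of 12 libraries, 3 per group, was sequenced with a stranded TruSeq kit, per the labels' protocols. The build was GRCh38 and the tools named were STAR, featureCounts, Salmon, DESeq2, edgeR, GATK, Trim Galore, MultiQC and FastQC, per the submitters' processing notes. Tool settings, counting strand and annotation release are not stated in the sources used here. The deposited table has another unit than those usually named: the authors divided each gene's read count by a library's size factor, as the values themselves show, with the decimal mark lost from values of 1 or more. Each of 265152 non-zero values was a whole multiple of what 1 read is worth in its library times a power of 10 (100.0% of them, tolerance 1e-07). A likelihood that knew the group labels picked the powers gene by gene, and 1825 values (0.688%) were ambiguous at odds under 20. None of the members had an ambiguous value or one that changed without the labels. On simulated data 99.818% of non-zero values were recovered over 63677 genes. The simulated reads had the spread that the likelihood assumes, and 200 genes were changed in CR3. In the real data 2178 genes were called higher and 2252 lower in CR3 against mCherry, so the recovery may be too favourable.

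Genes with at least 10 reads in at least 3 libraries and no ambiguous value were tested (15425) with limma 3.58.1 in R 4.3.3, on log2(normalized reads + 1) with a trend in the variance. The 4 groups were fitted together and p-values adjusted by Benjamini-Hochberg over all genes, two-sided, called under 0.05. Python 3.11.15 with numpy 2.4.6, pandas 2.3.3, scipy 1.17.1 and matplotlib 3.10.9 did the rest. Symbols and exon lengths (the union of exons of basic transcripts) came from GENCODE release 29. Of the genes found by symbol, 2 are not reported here. The members, lists and rules were chosen with earlier results of these data known. Named with values in every library were the members called against all 3 groups (up to 8 per direction and class), the most and least abundant of each class, GARS1, KARS1, HARS1, HARS2, TARS3, up to 3 members per comparison between other groups, and up to 4 list genes by p against mCherry. Alternatives changed the pseudocount, filter, scale, model, block, rebuilding and libraries used.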

Additional observations from a re-analysis of the deposited data

How the results depend on the processing

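No member's called change turned direction under any alternative run. With library totals as the scale, genes lower in CR3 against all 3 groups fell from 4 to 2 in the mitochondrial class and from 6 to 4 in the cytosolic class, genes higher went from 0 to 2 in each class, and the medians against mCherry, scramble and reverse were -0.01, -0.12 and -0.07 for cytosolic and 0.06, -0.06 and -0.03 for mitochondrial genes. Over all 15425 genes, those lower against all 3 groups went from 1732 to 927 and those higher from 1695 to 2762. Of the 60 calls of single members over all comparisons, 37 were kept on that scale. For CR3 against mCherry, cytosolic genes called lower went from 7 to 4 and mitochondrial ones from 4 to 2, and for CR3 against reverse from 14 to 6 and from 5 to 3, or from 20 to 13 calls in either direction. Over all genes, those called lower went from 2252 to 1270 against mCherry and from 2585 to 1542 against reverse. Those called higher went from 2178 to 3579 and from 2619 to 4085. Fitting only the 2 groups compared gave 9 calls in place of 14 in CR3 against mCherry, 1 in scramble against mCherry and 0 in reverse against mCherry. Calls over all genes in CR3 against mCherry fell as well, from 2178 to 1702 higher and from 2252 to 1571 lower. The fit with the replicate block gave 1 and 0 calls in scramble and in reverse against mCherry. It kept 54 of the 60 calls and all 10 genes lower against all 3 groups. The numbers do not pair the libraries: deviations of same-numbered libraries correlated between -0.124 and 0.0609, with 0 of 18 pairs over 0.1. Leaving out 1 library at a time gave 10 to 14 calls in CR3 against mCherry, 13 to 22 in CR3 against reverse, 0 to 5 calls in scramble against mCherry, 0 to 1 in reverse against mCherry, 8 to 12 genes lower and 0 to 1 higher (mitochondrial) against all 3, and cytosolic medians of -0.24 to -0.21 (CR3 against scramble), -0.17 to -0.14 (CR3 against reverse) and 0.04 to 0.09 (reverse against mCherry). The mitochondrial median in CR3 against mCherry, -0.03, ranged from -0.07 to -0.01. The filter at 50 reads and limma voom each gave 11 genes lower against all 3, with TARS1 added. The cause of these shifts was not tested. The background of genes with at least 1000 normalized reads and the lengths per kb over all exons (medians of 926 and 122) were added after the data had been seen. Depth limits the low mitochondrial genes most, with WARS2 and SARS2 at means of 141.7 and 181.8 normalized reads.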
